A study of Mus musculus with 33 samples.

Results

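The 9 genes described here take up, make, bind and break down retinoic acid: Stra6, Rdh10, Dhrs3, Aldh1a2, Crabp1, Crabp2, Cyp26a1, Cyp26b1 and Cyp26c1. They were chosen by name, with earlier results of these data known, and 9 of 9 were found in a count table of 17120 genes. The table came from bulk RNA-seq of 33 mouse embryonic stem cell cultures under differentiation, in 11 groups of 3 replicates. Paraxial mesoderm (PM), labelled as embryoid bodies, was collected at D6. Monolayer cultures were then given either CD1530, which activates the retinoic acid receptor RARγ, or the pan-receptor inverse agonist AGN 193109 (AGN). They were collected after 6 h (D6.25), 18 h (D6.75), 36 h (D7.5), 60 h (D8.5) and 96 h (D10). By the methods of the study, the stem cells carried the ScxGFP tendon reporter, and which of its lines was sequenced is not given in the sources used here. TGFβ1, the hedgehog agonist SAG and FGF2 were given to both conditions after D6. The refined protocol of the study also supplies AGN with LDN-193189 and CHIR before D6, so PM and both later conditions would share that exposure. No group after D6 lacked a receptor ligand, so CD1530 against AGN compares agonist with inverse agonist and neither with untreated cells.

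Retinol enters cells through the STRA6 receptor, is oxidised to retinal by RDH10, and is returned from retinal to retinol by DHRS3. ALDH1A2 turns retinal into retinoic acid, the CRABP proteins bind it in the cytosol, and the CYP26 enzymes oxidise it for removal. In the embryo ALDH1A2 of the paraxial mesoderm is a main source of retinoic acid, and Cyp26a1, Dhrs3, Stra6, Crabp2 and the receptor gene Rarb are textbook targets of the retinoic acid receptors.

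The receptors bind direct repeats of a 6-base half-site, classically with 5 bases between the repeats. The half-site was searched as AGGTCA, further as AGTTCA, next as GGGTCA and last as GGTTCA, on both strands, in RefSeq windows of GRCm38.p6 that run from 250 bases before to 50 bases after each start. A repeat with spacing 5 was in 32 of 32851 windows (0.0974%). Of the 9 genes, 7 had windows, 12 in all, and 1 of these windows, that of Cyp26a1, held the repeat. Repeats with spacing 2 or 1 were in 0.268% and 0.222% of all windows and in 0 of the 12. A single half-site was in 43.7% of all windows and in 2 of the 12. Rdh10 and Crabp2 had no window and were not searched. The sequence before the start of Cyp26a1 is shown because it is the single member window with the repeat, on the plus strand at chr19:37697558-37697797, with the half-sites in capitals.
Cyp26a1: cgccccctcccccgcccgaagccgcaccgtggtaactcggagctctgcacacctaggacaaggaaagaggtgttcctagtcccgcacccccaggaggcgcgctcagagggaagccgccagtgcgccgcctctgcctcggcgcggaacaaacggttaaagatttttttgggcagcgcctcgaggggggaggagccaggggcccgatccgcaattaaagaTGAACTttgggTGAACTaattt
The repeat lies at chr19:37697776-37697792, and its first base is 32 bases before the RefSeq start. Read on the minus strand it can be set beside the repeat of Rarb, which is on the minus strand at chr14:16575513-16575529, where its first base is 53 bases before the start. Both are shown because these genes were the pair among those with such a window that differed between conditions at every time point.
Cyp26a1: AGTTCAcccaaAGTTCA
Rarb: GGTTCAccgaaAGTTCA
A match of letters is a description of the window and not a measured binding site. Of the 31 genes with such a window, 7 were in the count table. Cyp26a1 and Rarb were called higher in CD1530 at D6.25, where 1.23% of all genes were. The others in the count table, Blvrb, Cfap45, Hbb-y, Prokr2 and Syndig1, were not called at D6.25. At D10, where 22.7% of all genes were called higher and 24% lower, Cyp26a1, Rarb and Prokr2 were called higher and Blvrb and Hbb-y lower.

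The total count per library ran from 17.1 M to 22.8 M, with the exception of the first AGN replicate of D8.5 at 38.1 M. No pair of replicates agreed within sampling noise. The labelled states were checked by marker genes. Tbx6, a paraxial mesoderm marker, was at 9.56 ± 0.77 CPM in PM (TMM-scaled CPM, mean ± SD, n = 3, as for all levels given here), and Scx, the tendon transcription factor, went from 6.41 ± 0.85 in PM to 858 ± 17 at D10 with CD1530 and 1223 ± 28 with AGN. The 4 pluripotency markers summed to 2070 to 2174 CPM in PM, and at D10 to 151.3 to 157.9 in CD1530 and 249.4 to 260.5 in AGN. Markers of other cell types also differed between the conditions, some before D10: the endothelial sum at D7.5 was 377.1 to 395.8 CPM in CD1530 and 229.7 to 256.1 in AGN, and the neural sum at D8.5 was 84.39 to 92.05 against 33.73 to 38.7. At D10 the 6 cartilage markers summed to 749.5 to 763.3 CPM in CD1530 and 3980 to 4166 in AGN, and the 5 neural markers to 66.12 to 69.14 and 13.13 to 14.67, with Neurog2 at 0 in all 3 AGN libraries. Neurog2 was also at 0 in AGN at D6.75, where its difference between conditions was not called (edgeR adjusted p 0.194). The part of these shifts in the results on retinoid genes was not tested. In bulk RNA, fewer cells of a type and less RNA per cell cannot be told apart. The replicates are biological by the study's methods, and its figure captions call them independent samples. Nothing in the labels says that they came from separate differentiations. If they did not, the p-values measure the spread within a differentiation and not the spread between differentiations.

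CD1530 against AGN asks how the retinoid genes differ between receptor agonist and inverse agonist as cells leave PM. Stra6, Dhrs3, Cyp26a1 and Cyp26b1 were higher in CD1530 at all 5 time points, and Crabp2 and Cyp26c1 from D6.75 on. Rdh10 was lower in CD1530 up to D8.5 and higher at D10. Aldh1a2, an enzyme that makes retinoic acid, was lower in CD1530 at D8.5 and D10, and Crabp1 was lower at D8.5 alone of the 5 times tested. Aldh1a3, another enzyme that makes retinoic acid but no member of the 9, was lower in CD1530 at D6.75 and D7.5 and higher at D8.5 and D10. By edgeR's quasi-likelihood test at an adjusted p under 0.05, 5 of 9 were called at D6.25, 4 higher and 1 lower, where 1.92% of all genes were called (1.23% higher, 0.695% lower). At D6.75 and D7.5, 7 of 9 were called at each time, 6 higher and 1 lower, against 18% of all genes at D6.75 (7.94% higher, 10% lower) and 26.9% at D7.5 (15.2% higher, 11.8% lower). At D8.5, 9 of 9 were called, 6 higher and 3 lower, against 40% (20.4% higher, 19.6% lower). At D10, 8 of 9 were called, 7 higher and 1 lower, against 46.6% (22.7% higher, 24% lower). The median log2 fold change of the 9 was 0.54, 1.23, 1.57, 2.99 and 2.44 at the successive times, where the median of all genes was between -0.02 and 0.01. The difference between conditions changed over the 5 times for 9 of 9 by the interaction test, against 48.8% of all genes.

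**Figure D1:**
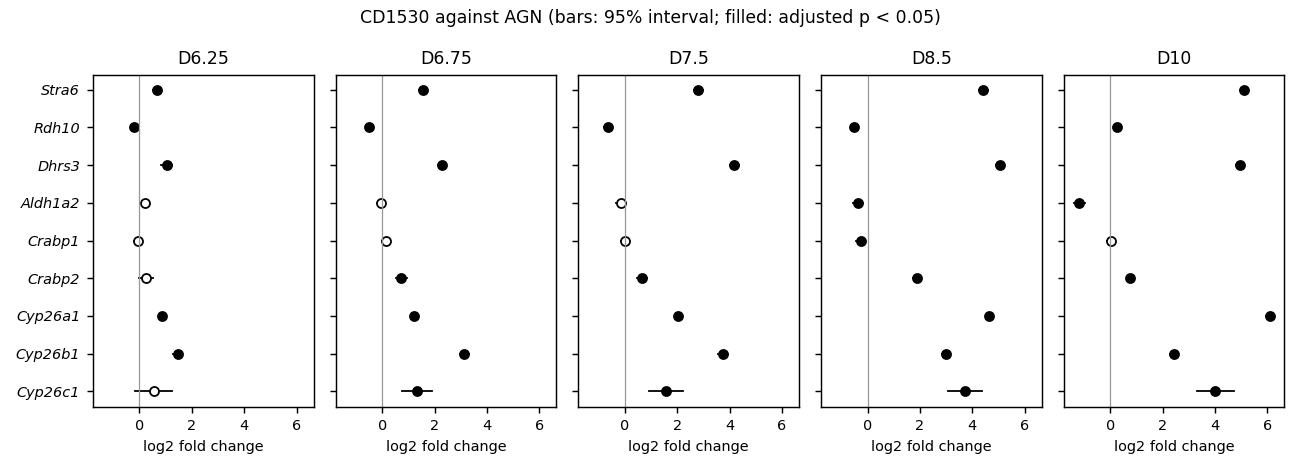
Log2 fold change of CD1530 against AGN for the 9 genes (rows) at each of 5 time points (panels), with 95% intervals as bars and filled circles where the edgeR adjusted p was under 0.05. Dhrs3, Stra6 and Cyp26a1 move from 0.65 to 1.04 at D6.25 to values between 4.94 and 6.11 at D10, and Rdh10 moves from the left of 0 to its right.

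In PM, before the treatments diverged, a binding protein gene and a synthesis gene led the 9. Levels of different genes are compared here only as CPM per kb of exon. The length joins all annotated exons of a gene, whichever transcript the cells use, and was 5829 bases for Stra6 and 802 for Crabp1. A gene read mainly from a shorter transcript would be placed too low, so every order of different genes depends on that length. Crabp1 was at 180.8 CPM per kb in PM, Aldh1a2 at 13.86, Rdh10 at 5.341, Stra6 at 4.624, Crabp2 at 3.032, Cyp26b1 at 2.07 and Dhrs3 at 1.368. Cyp26a1 and Cyp26c1 were near absence, at 0.201 and 0.1202 CPM per kb. All 9 rose from PM to D6.25 in both conditions, where 67.8% of all genes changed in CD1530 (34.5% rose, 33.3% fell) and 68.1% in AGN (35% rose, 33.1% fell). Plating from embryoid bodies into a monolayer, the new medium and time cannot be told apart in that comparison, and both conditions share the PM libraries. By D10, Cyp26a1, Dhrs3, Stra6 and Crabp2 lay between 64.48 and 85.32 CPM per kb in CD1530, below Crabp1 at 116.1. In AGN at D10 Crabp1 at 114.2 and Crabp2 at 37.95 led and Cyp26a1 was at 1.237. Aldh1a2, next after Crabp1 in PM, was last of the 9 in CD1530 at D10, at 2.151 CPM per kb.

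**Figure D2:**
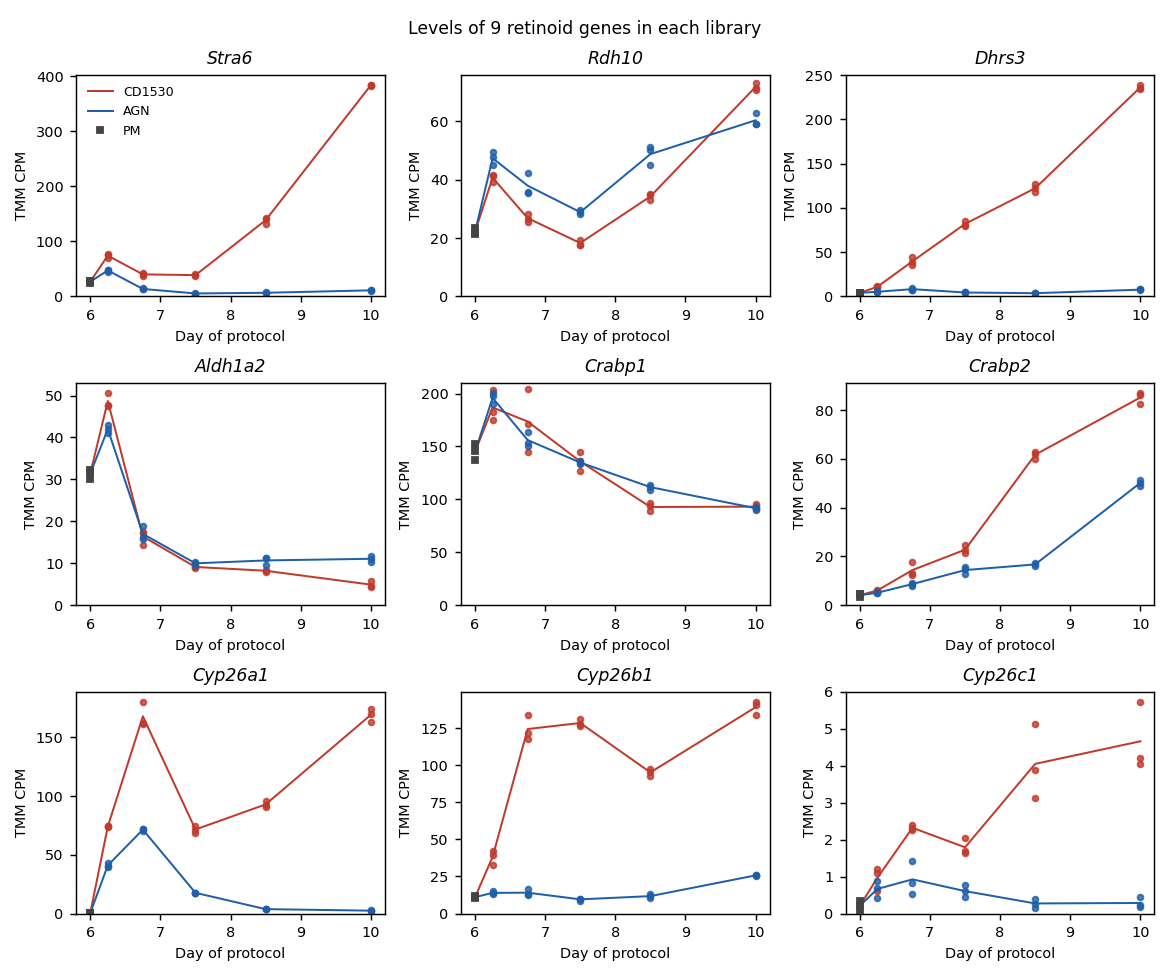
TMM CPM of each gene (one panel per gene, linear axes that start at 0 and differ in range) against the day of the protocol, with a point per library, squares for PM and lines through the group means. Dhrs3 and Stra6 climb in CD1530 to 236 and 384 CPM at D10 and stay at 11.7 or below in every AGN library from D7.5 on, and Cyp26a1 has an early maximum at D6.75 in both conditions.

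Stra6, the cell surface receptor that takes up retinol from its carrier protein, lies on the plus strand of chromosome 9 (58063788 to 58153996 on GRCm38). The span overlaps Ccdc33 on the minus strand and a gene annotated as antisense, neither of which is in the count table, and the strand setting of the counting is not given in the sources used here. At D6.25 Stra6 was at 69.4, 75.3 and 77.9 CPM in the 3 CD1530 libraries and at 45.3, 48.4 and 48.2 in AGN. Every library of both conditions was above the PM libraries, which lay between 25.0 and 28.5. Both conditions then fell, to 40.1 ± 2.85 in CD1530 and 13.6 ± 1.49 in AGN at D6.75. After D7.5 CD1530 climbed steeply. It rose to 138 ± 5.78 at D8.5 and to 384, 383 and 384 CPM at D10. AGN reached its lowest level, 5.49 ± 0.683, at D7.5 and then rose to 11.7, 11.3 and 10.5 CPM at D10, still below every PM library. The log2 fold change between conditions was 0.65 ± 0.06 (SE) at D6.25 (edgeR adjusted p 3.65e-09), 2.81 ± 0.09 at D7.5 and 5.10 ± 0.08 at D10 (adjusted p 3.43e-37). Against PM, Stra6 at D10 was 14.2-fold higher in CD1530 and 2.42-fold lower in AGN, with adjusted p-values of 3.37e-36 and 2.73e-16. In the order of the 11 groups, neighbours overlapped for CD1530 at D6.75 and D7.5 and for AGN at D8.5 and D7.5 and for no other pair.

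Rdh10, the dehydrogenase that oxidises retinol to retinal, lies on the plus strand of chromosome 1 (16105774 to 16133734). It had the same shape in both conditions, with a rise at D6.25, a trough at D7.5 and a second rise to D10, and the order of the conditions turned over between D8.5 and D10. At D7.5 the CD1530 libraries were at 19.5, 17.7 and 17.8 CPM and the AGN libraries at 28.1, 28.9 and 29.7. CD1530 was below AGN without overlap, and below PM, whose libraries lay between 21.5 and 23.3. At D10 the CD1530 libraries were at 71.3, 70.9 and 73.3 CPM, all above AGN at 62.8, 59.3 and 59.1. The log2 fold change was -0.50 ± 0.06 both at D6.75 and at D8.5, was lowest with -0.66 ± 0.07 at D7.5 (edgeR adjusted p 1.67e-10) and reached 0.25 ± 0.06 at D10 (adjusted p 2.90e-04). The call at D6.25, -0.22 ± 0.06 (adjusted p 0.0323), was lost in 7 of 15 alternatives. Without any 1 of the 3 CD1530 libraries its adjusted p was 0.0756, 0.158 and 0.0615, without AGN replicate 1 it was 0.213 and without AGN replicate 2 it was 0.122, and it was 0.0512 with scaling by library size only and 0.064 with libraries thinned to the smallest total. Against PM, Rdh10 at D10 was 3.23-fold higher in CD1530 and 2.72-fold higher in AGN. In the order of its 11 groups, 3 neighbouring pairs overlapped: AGN D8.5 with AGN D6.25, CD1530 D6.25 with AGN D6.75, and AGN D7.5 with CD1530 D6.75.

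Dhrs3, the reductase that returns retinal to retinol and a known target of the receptors, lies on the plus strand of chromosome 4 (144892827 to 144928209). In CD1530 it rose at every step. The libraries were at 10.8, 11.8 and 10.4 CPM at D6.25, at 85.6, 81.1 and 79.0 at D7.5 and at 239, 235 and 234 at D10, from 3.83 to 4.31 in PM. In AGN it stayed low throughout, at 5.03, 4.93 and 6.06 CPM at D6.25, 3.55, 3.67 and 3.87 by D8.5 and 8.19, 7.95 and 6.95 by D10. The lowest CD1530 library of any time was above the highest AGN library of any time. Between conditions the log2 fold change was 1.04 ± 0.10 at D6.25 (edgeR adjusted p 1.25e-09), then 2.27 ± 0.08, 4.18 ± 0.08 and 5.06 ± 0.08 at the next 3 times, and 4.94 ± 0.07 at D10 (adjusted p 1.55e-38). Within AGN, Dhrs3 rose by 0.62 ± 0.11 on the log2 scale to D6.75, fell by 0.87 at D7.5 and rose by 1.07 ± 0.12 from D8.5 to D10. Neighbours in the order of groups overlapped among the low AGN and PM groups, and nowhere among the CD1530 groups. Dhrs3 and Rdh10 act on the same pair of molecules in opposite directions, and in CD1530 the order of their levels turned over. Dhrs3 was at 3.749 and Rdh10 at 9.787 CPM per kb at D6.25, and they were at 80.67 and 17.27 by D10. In AGN at D10 Dhrs3 was still the lower, at 2.629 against 14.52 CPM per kb.

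Aldh1a2, a dehydrogenase that makes retinoic acid from retinal, lies on the plus strand of chromosome 9 (71215789 to 71296243), with a pseudogene on the minus strand inside its span that is not in the count table. It was highest at D6.25, where the CD1530 libraries held 50.7, 47.6 and 47.8 CPM and the AGN libraries 41.1, 41.9 and 42.9. The groups did not overlap, but the difference of 0.21 ± 0.07 missed the threshold (edgeR adjusted p 0.0832), and it was called when the compared groups were fitted alone (adjusted p 0.00346). Both conditions fell steeply to D6.75, to 2.98-fold lower in CD1530 and 2.48-fold lower in AGN, and again to D7.5. The paths then separated. In AGN the level held near its D7.5 value of 9.95 ± 0.406, and lay between 10.3 and 11.8 CPM at D10, while in CD1530 it fell further to 5.71, 4.29 and 4.61 CPM. No CD1530 library at D10 reached the AGN range. The log2 fold change was -0.36 ± 0.10 at D8.5 (adjusted p 0.00237) and -1.17 ± 0.11 at D10 (adjusted p 5.21e-12), and at D6.75 and D7.5 it was -0.05 ± 0.08 and -0.13 ± 0.09, with 95% intervals from -0.207 to 0.113 and from -0.322 to 0.061. Against PM, Aldh1a2 at D10 was 6.41-fold lower in CD1530 and 2.84-fold lower in AGN. Neighbours in its order of groups overlapped for the conditions at D6.75 and among AGN D10, D8.5 and D7.5.

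Crabp1 and Crabp2 encode the cellular retinoic acid binding proteins, on the plus strands of chromosome 9 (54764748 to 54773110) and chromosome 3 (87948666 to 87953376). Per kb of all annotated exons joined, Crabp1 was the most abundant of the 9 in all 11 groups, an order that depends on that length. It had the narrowest range of the 9, 2.14-fold between its highest and lowest group means. PM held 145 ± 7.65 CPM. At D6.25 the level was 187 ± 14.4 with CD1530 and 196 ± 5.41 with AGN, and by D10 it was 93.1 ± 2.65 and 91.6 ± 1.2. Of the 10 neighbouring pairs in its order of groups 8 overlapped. The conditions overlapped at every time but D8.5, and at D10 the log2 difference was 0.02 with a 95% interval from -0.141 to 0.186. At D8.5 the CD1530 libraries held 93.3, 96.1 and 88.8 CPM of Crabp1 and the AGN libraries 114, 112 and 109. On the log2 scale the difference was -0.27 ± 0.08 (edgeR adjusted p 0.00696). The change of its difference over time (adjusted p 0.0246) was not called without AGN D8.5 replicate 1 (adjusted p 0.0592) or without CD1530 D8.5 replicate 3 (adjusted p 0.0671). At D6.75 the CD1530 libraries spread from 145 to 204 CPM. The D6.75 difference was called without replicate 3 of CD1530, with a log2 fold change of 0.27 (adjusted p 7.78e-04), and not with it, 0.15 ± 0.07 (adjusted p 0.172).

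While Crabp1 at D10 was below PM in both conditions, Crabp2 was above it. It was at 4.4, 4.39 and 3.23 CPM in PM and rose through the course in CD1530, to 24.4, 22.5 and 21.2 at D7.5, 60.04, 62.9 and 62.2 by D8.5 and 82.6, 86.1 and 87.0 by D10. AGN also rose, most in the last step. At D7.5 its libraries held 12.6, 14.8 and 15.7 CPM. They held 17.1, 16.1 and 16.8 by D8.5, and a 3.0-fold rise took them to 51.5, 50.2 and 48.8. The difference between conditions was largest at D8.5, 1.88 ± 0.08 on the log2 scale (edgeR adjusted p 5.85e-23), and was 0.74 ± 0.10 for D6.75, 0.65 ± 0.09 for D7.5 and 0.76 ± 0.07 for D10. In its order of groups the neighbours AGN D8.5, CD1530 D6.75 and AGN D7.5 overlapped, and no others. At D6.25 the libraries did not overlap, but the difference of 0.25 ± 0.13 missed the threshold (adjusted p 0.456). The rise from PM to D6.25 in AGN was small, 0.32 ± 0.14 (adjusted p 0.0403), and was lost in 5 of 15 alternatives, among them the fits without PM replicate 3 (adjusted p 0.241), AGN replicate 1 (0.157) and AGN replicate 3 (0.0545). The share of Crabp2 in the summed CPM per kb of the pair was 1.643 ± 0.204% in PM, 28.77 ± 0.929% in CD1530 and 8.312 ± 0.248% in AGN at D8.5. By D10 the respective shares were 35.71 ± 0.267% and 24.94 ± 0.497%. The sum of both genes was 183.8 CPM per kb in PM and rose to 237.7 with CD1530 and 248.3 with AGN at D6.25. It was 162.3 and 151.7 in the respective conditions at D8.5, and 180.5 and 152.2 by D10.

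The CYP26 enzymes oxidise retinoic acid and end its action. Cyp26a1 (chromosome 19, plus strand, 37697798 to 37701536) and Cyp26c1 (37685581 to 37693398, same strand) are neighbours 4.4 kb apart, and Cyp26b1 is on the minus strand of chromosome 6 (84571414 to 84593908). Cyp26a1, whose promoter repeat is printed above, had 4 to 11 counts in each PM library, or 0.191, 0.52 and 0.485 CPM. Within 6 h the CD1530 libraries reached 74.9, 73.3 and 74.2 CPM and the AGN libraries 42.8, 39.8 and 40.5. All 6 were far above PM, also under the inverse agonist, and the log2 fold changes against PM were 7.53 ± 0.11 in CD1530 and 6.67 ± 0.12 in AGN (edgeR adjusted p 2.36e-39 and 2.80e-36). Both conditions rose further to D6.75, where CD1530 held 180, 162 and 162 CPM and AGN 70.2, 72.0 and 72.2, and both fell at D7.5, to 71.6 ± 2.98 and 17.6 ± 0.3. After D7.5 CD1530 rose again, to 163, 175 and 170 CPM at D10, within the range it had at D6.75. Neighbours in the order of groups overlapped there and among CD1530 D6.25, CD1530 D7.5 and AGN D6.75. AGN went on falling, to 3.49, 4.08 and 3.71 CPM by D8.5 and 2.75, 2.35 and 2.26 by D10. The log2 fold change between conditions grew at each time, from 0.85 ± 0.05 at D6.25 (adjusted p 7.76e-16) over 1.23 ± 0.05, 2.02 ± 0.06 and 4.64 ± 0.07 to 6.11 ± 0.08 at D10 (adjusted p 6.33e-41), where it was 68.9-fold. Cyp26a1 in AGN at D10 was still 6.11-fold above PM (adjusted p 8.57e-14), from 38 to 44 counts per library.

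Cyp26b1 rose early and strongly with CD1530 and little with AGN. PM held 10.3, 11.9 and 11.1 CPM. At D6.25 the CD1530 libraries held 32.9, 42.2 and 39.6 CPM and the AGN libraries 15.0, 13.3 and 13.6. The conditions differed by 1.46 ± 0.09 on the log2 scale, the largest difference of the 9 at that time (edgeR adjusted p 1.05e-14). In CD1530 it went on to 118, 134 and 122 CPM at D6.75, where it levelled off, with a fall of 0.43 on the log2 scale from D7.5 to D8.5 (adjusted p 1.67e-06) and a rise back to 143, 141 and 134 CPM at D10. In AGN it stayed between 8.59 and 16.3 CPM through D8.5 and then rose to 25.4, 25.7 and 26.1 at D10, a change of 1.102 ± 0.09 (adjusted p 1.07e-12). The difference between conditions was widest at D7.5, 3.75 ± 0.09, and 2.44 ± 0.08 at D10. The small AGN rise from D7.5 to D8.5, 0.33 ± 0.11 (adjusted p 0.0122), was lost without AGN D8.5 replicate 1 (adjusted p 0.199), without AGN D7.5 replicate 3 (0.0891) and with scaling by library size only (0.0574). Among its 10 neighbouring pairs of groups 4 overlapped, CD1530 D7.5 with D6.75 and 3 among PM and the low AGN groups.

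Cyp26c1 had 2 to 104 counts per library, and its errors are wide. PM libraries were at 0.191, 0.331 and 0.108 CPM. At D6.25 the CD1530 libraries held 1.09, 0.623 and 1.19 CPM and overlapped the AGN libraries at 0.686, 0.879 and 0.433. The log2 difference of 0.54 had a 95% interval from -0.17 to 1.24. From D6.75 the conditions no longer overlapped. By D10 the CD1530 libraries held 4.04, 5.72 and 4.22 CPM and the AGN libraries 0.438, 0.241 and 0.178, which is 3 to 7 counts per AGN library, and the log2 fold change was 4.01 ± 0.35 (edgeR adjusted p 7.32e-13). In AGN at D10 a difference from PM was not detectable at this depth, 0.39 with a 95% interval from -0.859 to 1.65, and 6 of its 10 neighbouring pairs of groups overlapped.

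Per kb of exon, the make-up of the family changed with condition and time. In PM the summed level was 2.391 ± 0.269 CPM per kb, and Cyp26b1 made up 86.84 ± 3.63% of it. At D6.75 Cyp26a1 made up 77.46 ± 1.96% of a sum of 109.3 ± 4.33 in CD1530 and 91.93 ± 0.591% of a sum of 39.2 ± 0.399 in AGN. By D10 Cyp26a1 was still 74.83 ± 0.911% in CD1530, where the sum was 114.0 ± 3.27, but 19.89 ± 1.65% in AGN, where the sum was 6.21 ± 0.147 and Cyp26b1 was again the main transcript at 77.5 ± 2.82%. Shares are of RNA and say nothing of enzyme activity.

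**Figure D3:**
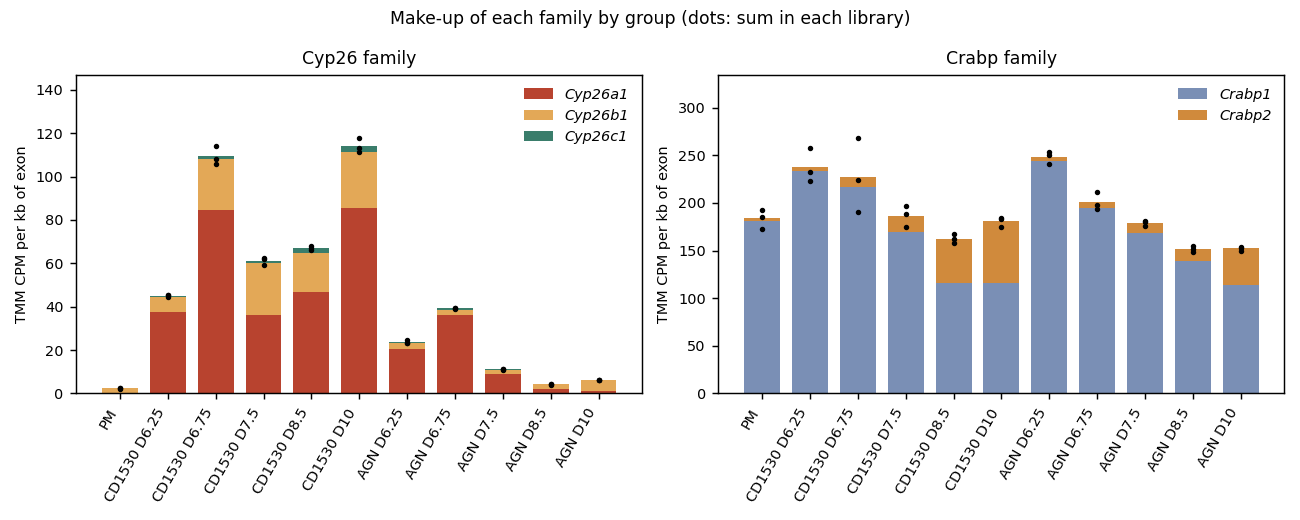
Stacked mean TMM CPM per kb of exon of the Cyp26 genes (left) and Crabp genes (right) in the 11 groups, with dots for the sum in each library. The Cyp26 sum reaches 114.0 in CD1530 and 6.21 in AGN at D10, mostly Cyp26a1 in the former and Cyp26b1 in the latter, and the Crabp2 part of the Crabp bars grows from D6.25 on in both conditions.

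Step changes were tested within each condition, and a call in only 1 condition is no test of a difference between them. From D6.25 to D6.75, 5 of the 9 rose and 3 fell in CD1530 (45.9% of all genes changed, 25.8% up and 20.1% down), and 3 rose and 4 fell in AGN (43.7%, 24.9% up and 18.8% down). From D6.75 to D7.5, 2 rose and 4 fell in CD1530 (34.2%, 18.7% up and 15.5% down), and 1 rose and 7 fell in AGN (30.3%, 14.2% up and 16% down), the exception in AGN being Crabp2, while Cyp26c1 was not called. From D7.5 to D8.5, 6 rose and 2 fell in CD1530 (36.5%, 18.8% up and 17.7% down), and 2 rose and 2 fell in AGN (42.1%, 21.4% up and 20.6% down). The number called in AGN at this step lay near the share of all genes. From D8.5 to D10, 6 rose and 1 fell in CD1530 (57.3%, 27.4% up and 29.9% down), the one that fell being Aldh1a2, and 5 rose and 2 fell in AGN (59.4%, 29.9% up and 29.5% down), the falls being Cyp26a1 and Crabp1. Several AGN steps were near the threshold. From D6.75 to D7.5 the fall of Crabp1 by 0.21 (edgeR adjusted p 0.0325) was lost in each fit without 1 library other than AGN D6.75 replicate 2, with adjusted p-values from 0.0524 to 0.134. From D7.5 to D8.5, Stra6 was called without AGN D7.5 replicate 2 (adjusted p 0.0413) or AGN D8.5 replicate 1 (0.00858), Cyp26c1 without AGN D8.5 replicate 1 (0.0407), Crabp2 without AGN D7.5 replicate 3 (0.0261) and Dhrs3 without AGN D7.5 replicate 1 (0.0218). In the TMM fit of all 33 libraries none of these 4 was called, while Dhrs3 was called with DESeq2 size factors (0.0493) or library size alone (0.0122), Cyp26c1 with library size alone (0.0469) or thinned libraries (0.0357), and Crabp2 with thinned libraries (0.0388) or the compared groups only (0.0471). Against PM at D10, 7 were higher and 2 lower in CD1530 (83.2% of all genes changed, 43.3% up and 39.9% down), and 5 higher and 3 lower in AGN (82%, 41.6% up and 40.4% down), Stra6, Aldh1a2 and Crabp1 being the lower ones in AGN. In both conditions the number called against PM lay near the share of all genes.

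**Figure D4:**
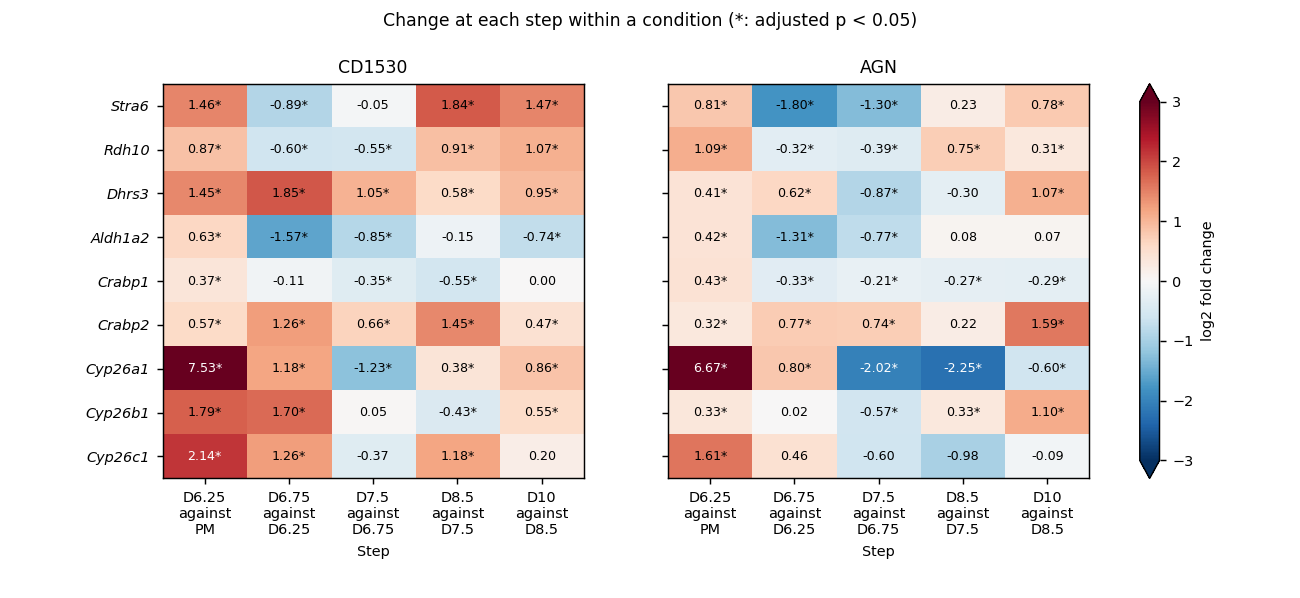
Log2 fold change of each gene (rows) at each step (columns) within CD1530 (left) and AGN (right), red for a rise and blue for a fall, with an asterisk where the edgeR adjusted p was under 0.05. Cyp26a1 rises by 7.53 and 6.67 at the first step in the respective conditions, and at the step to D8.5 it rises by 0.38 in CD1530 and falls by 2.25 in AGN.

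Of the 47 other genes of the retinoid pathway that were listed, 27 were in the table. Between conditions 5 of the 27 were called at D6.25 (4 higher, 1 lower in CD1530), 9 at D6.75 (4 and 5), then 8 at D7.5 (5 and 3) and 10 at D8.5 (7 and 3), and by D10 the count was 16 (9 and 7). The share of all genes called in the same order of times was 1.92%, 18%, 26.9%, 40% and 46.6%, so that the counts at D7.5 and D8.5 lay near that background. The count at D6.25 was 3 without AGN D6.25 replicate 2. The median log2 fold change of the 27 lay between -0.03 and 0.16 over the 5 times, unlike the 9. Both lists were chosen with earlier results of these data known, and the 9 include textbook receptor targets, so that contrast is no test. Among the receptors, Rarb was at 0.0636 ± 0.073 CPM in PM, 0 to 3 counts per library, and by D10 at 56.2 ± 3.6 with CD1530 and 1.12 ± 0.49 with AGN. Its log2 fold change was 5.63 ± 0.14 (edgeR adjusted p 8.15e-31). Rarg, the receptor that CD1530 targets, was higher in CD1530 from D6.25 to D8.5, most at D6.75 (0.95 ± 0.05), and differed by -0.03 with a 95% interval from -0.125 to 0.067 at D10. Rxra was lower in CD1530 at D10 by 0.68 ± 0.04 on the log2 scale. Among the enzymes that make retinoic acid, Aldh1a3 was lower in CD1530 at D6.75 (-0.98 ± 0.08) and D7.5 (-0.68 ± 0.08) and higher at D8.5 (0.39 ± 0.05) and D10 (1.11 ± 0.04), where it was at 268 ± 6.3 CPM against 124 ± 2.3. It was at 2.06 ± 0.18 CPM in PM, and the direction of its difference at D10 was opposite to that of Aldh1a2. Other called genes that differed by 1 or more on the log2 scale included Adh1 (2.05 ± 0.60), Aldh1a7 (1.604 ± 0.38) and Dhrs9 (1.07 ± 0.14) at D10 and Rdh12 (1.08 ± 0.41) at D8.5, and Rdh12, Adh1 and Aldh1a7 were at 2.02 CPM or less in both conditions at those times. Stra8, a standard receptor target that is no member of the list, held 201 ± 1.1 CPM with CD1530 and 0.162 ± 0.036 with AGN by D10 (10.22 ± 0.14, adjusted p 3.27e-40).

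**Figure D5:**
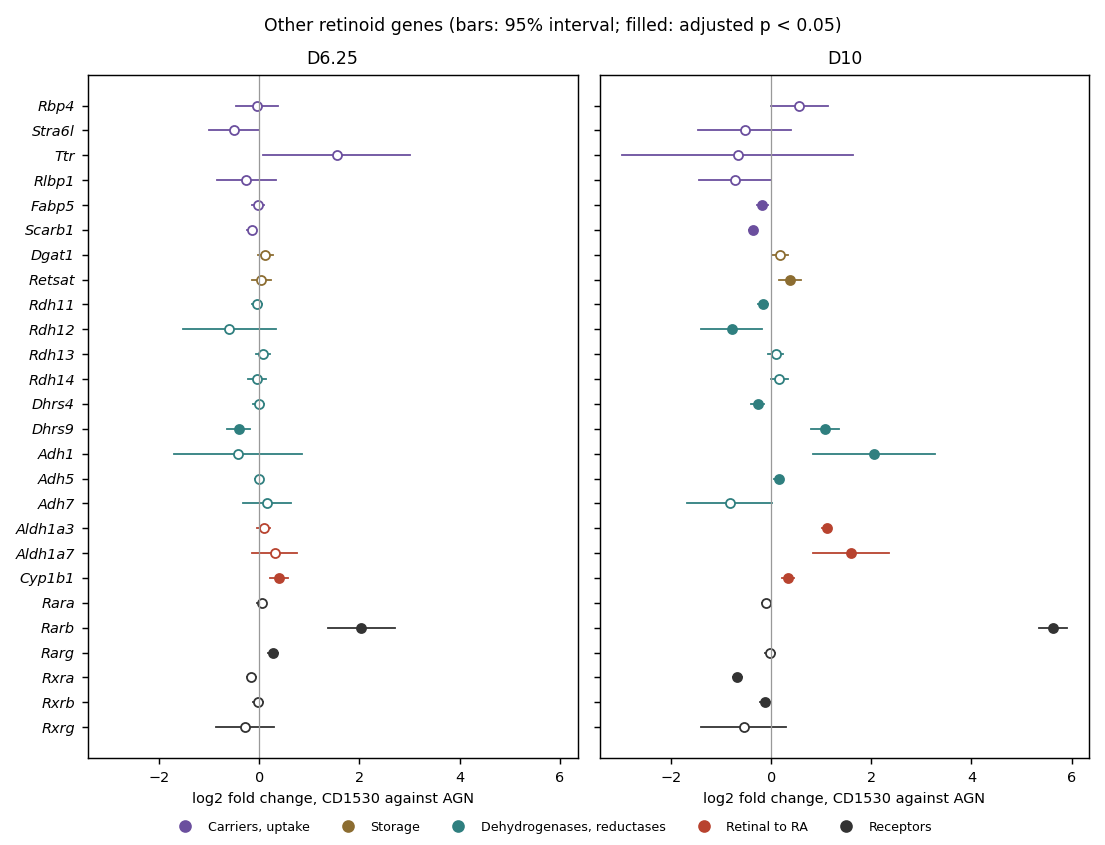
Log2 fold change of CD1530 against AGN at D6.25 (left) and D10 (right) for the other retinoid genes reported here, coloured by role, with 95% intervals as bars and filled circles where the edgeR adjusted p was under 0.05. Rarb stands farthest to the right in both panels at 2.04 and 5.63, and most other genes lie between -1 and 1.

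The patterns of the 9 over the 11 group means were compared as Pearson correlations of log2(TMM CPM + 1), a description in which the groups share time, condition and PM. Dhrs3 was most like Cyp26c1 (r = 0.956, n = 11 groups) and Cyp26b1 (0.938), and Stra6 like Cyp26c1 (0.815) and Dhrs3 (0.799). Crabp1 went with Aldh1a2 (0.821) and against Crabp2 (-0.877), and Aldh1a2 went against Crabp2 (-0.875). Rdh10 had correlations between -0.385 and 0.405 with the other 8. Over all genes with a mean count of at least 50, the gene most like Dhrs3 was Rarb (r = 0.992), followed by Camk2n1 and Tmem200b. The closest to Cyp26c1 were Meis2 (0.971), Krcc1 and Rarb, and to Crabp2 Ankrd1 (0.992), Abca3 and Bdnf. For Cyp26a1 they were Nrip1 (0.965), Pyurf and Sh2b2, for Cyp26b1 Uck1 (0.944), Dhrs3 and Pitpnc1, and for Stra6 Rel (0.956), Tmem120a and Adgrb1. For Aldh1a2 they were Slc7a11 (0.980), Mia2 and Kat5, for Crabp1 Lifr (0.971), Atpsckmt and Chdh, and for Rdh10 Ptdss1 (0.947), Cers4 and Tceal8. Likeness in shape does not mean likeness in size, since Rel lay between 4.404 and 9.601 CPM over the groups where Stra6 lay between 5.492 and 383.6.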

How the data were processed

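Raw counts of 17120 genes in 33 libraries were deposited. By the methods, the authors aligned paired reads to GRCm38 with STAR and counted them per gene with featureCounts, while the annotation, the strandedness and how multi-mapped reads were treated are not given in the sources used here. Counts were analysed with edgeR 4.0.16 in R 4.3.3. A single model held all 33 libraries and 11 group means, TMM normalization and the robust quasi-likelihood F test, no covariates, and Benjamini-Hochberg adjustment over all 17120 genes within each contrast. The filter on low counts removed 0 genes, so the deposited table held none below its threshold. Genes not in that table have no value here, and each share of all genes is over the 17120 in it. Each SE is the absolute log2 fold change divided by the square root of F, and 95% intervals use the degrees of freedom of that test. Fitted folds include edgeR's prior count and so can differ from the ratio of the CPM values printed. Levels are TMM CPM. The testing steps were run on counts simulated from the fitted means and dispersions with known changes. The simulated libraries were independent, so that run cannot show how replicates from a shared differentiation would act.

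The 9 genes, the list of 47 other retinoid genes, the markers and the tests were chosen with earlier results of these data known. Other genes named were called genes of the list that differed by 1 or more on the log2 scale, the 3 genes most alike to each of the 9 in pattern (mean count at least 50, no predicted genes), Rarb and Stra8, label checks (Scx, Col2a1, Tbx6), and genes with a promoter repeat; some further pathway genes (Rarg, Rxra) were named after their values were seen. Gene spans and exon lengths came from GENCODE M21 on GRCm38, where 17117 identifiers matched, and promoter sequences from RefSeq on GRCm38.p6. Of the listed genes, 1 that enters the counts and medians is not reported here. No table columns belonged to other samples. Alternatives were DESeq2 size factors, library size only, no filter, a minimum of 1 CPM in 3 libraries, non-robust dispersions, DESeq2 1.42.0, models of the compared groups alone, a block for replicate number, thinning to the smallest total, and each library left out.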

Additional observations from a re-analysis of the deposited data

Results flagged for a closer look

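For 9 of 9 genes the difference between CD1530 and AGN changed over the 5 time points, by the interaction with 4 degrees of freedom in edgeR's quasi-likelihood test. The adjusted p was 1.14e-30 for Stra6, 1.94e-11 for Rdh10, 4.96e-27 for Dhrs3, 2e-10 for Aldh1a2, 3.42e-13 for Crabp2, 5.91e-36 for Cyp26a1, 2.99e-16 for Cyp26b1, 1.87e-07 for Cyp26c1 and 0.0246 for Crabp1, where 48.8% of all genes were called. For Rdh10 the sign of the difference turned, from -0.66 ± 0.07 at D7.5 to 0.25 ± 0.06 at D10 on the log2 scale. For Crabp2 and Cyp26b1 the difference was widest in the middle of the course, at D8.5 (1.88 ± 0.08) and D7.5 (3.75 ± 0.09) respectively, and for Cyp26a1 and Stra6 at D10 (6.11 ± 0.08 and 5.10 ± 0.08). Crabp1 was the only one of the 9 whose interaction call was lost in a fit with 1 library left out, without AGN D8.5 replicate 1 (0.0592) or CD1530 D8.5 replicate 3 (0.0671). Groups of 3 libraries were not screened for outliers.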

How the results depend on the processing

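The counts of the 9 genes called kept within 1.5 times their values in all comparisons and alternatives run. The count of other retinoid genes called at D6.25, 5 with all libraries, was 3 to 5 with 1 library left out. Replicate numbers did not pair the libraries (165 same-numbered pairs, median r 0, 6 over 0.1), and with the replicate block 5 of the 9 were called at D6.25, as without it. The differences that changed sign were not called with all libraries. Values with 1 library left out are given as the ends of their range and those that changed sign. For Crabp1 between conditions at D7.5 the log2 fold change was -0.0026 with DESeq2 size factors, -0.0029 with library size only, -0.0024 with DESeq2, -2e-04 with the compared groups only and between -0.0378 and 0.0577 with 1 library left out. For Crabp1 in CD1530 from D8.5 to D10 it was -0.089 with library size only and -0.0258, -0.0122, -0.0023 and up to 0.0312 with 1 library left out, and from D6.25 to D6.75 between -0.2409 and 0.0075. For Aldh1a2 in AGN it was -0.0092 from D7.5 to D8.5 and -0.0267 from D8.5 to D10 with library size only, and between -0.0196 and 0.1186 for the latter with 1 library left out, and between conditions at D6.75 it was between -0.0966 and 0.0366, with 0.0338 in another fit. For Cyp26c1 in AGN from D8.5 to D10 it was 0.2091 with thinned libraries and between -0.5142 and 0.4366, with 0.0151 and 0.1592 in other fits, with 1 library left out, and against PM between -0.0318 and 0.8541. For Cyp26b1 in AGN from D6.25 to D6.75 it was between -0.1077 and 0.0935, with -0.0118 in another fit. The cause was not tested. In CD1530 from D6.75 to D7.5 the fall of Crabp1 missed the threshold with the compared groups only (adjusted p 0.0534), and its change from D6.25 to D6.75 was called without CD1530 D6.75 replicate 1 (0.00167). Low counts limit Cyp26c1 most.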

Other observations

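Under the inverse agonist, Rarb and Cyp26a1 both peaked at D6.75 and then fell to D8.5, but most of the rise of Cyp26a1 came by D6.25. In AGN Cyp26a1 rose by 6.67 on the log2 scale from PM to D6.25 and by 0.80 from there to D6.75. Rarb was in AGN at 0.412, 0.195 and 0.289 CPM at D6.25, 2.25, 2.28 and 2.35 at D6.75, 0.606, 0.79 and 0.494 at D7.5 and 0.162, 0.051 and 0.159 at D8.5. The rise of Rarb from D6.25 to D6.75 (2.90 ± 0.29 on the log2 scale), its fall to D7.5 (-1.84 ± 0.25) and its fall to D8.5 (-2.21 ± 0.46) passed the edgeR test. From D8.5 to D10 Rarb rose by 3.04 ± 0.41, where Cyp26a1 fell by 0.60. These AGN values of Rarb rest on 1 to 51 counts per library. The link between Rarb and Cyp26a1 was not tested.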
